A study of Mus musculus with 2 samples.

Results

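The genes described here encode the proteins that bring vesicles to a membrane and fuse them with it, with the ferlins, a family of membrane-fusion and membrane-repair proteins. They were chosen by gene symbol and comprise the synaptotagmins (Syt), synaptotagmin-like proteins (Sytl), syntaxins (Stx), syntaxin-binding proteins (Stxbp), Vamp and Snap genes, liprin-alphas (Ppfia), Rims, Rab3, Rab27 and Unc13 genes and the ferlins. The symbols matched 73 of the 17134 genes in the table. Expression was measured by RNA sequencing in tuft cells, the chemosensory cells of the gut epithelium, sorted from mouse small intestine as EpCAM+ SiglecF+ cells. There was 1 library of untreated WT mice, genotype Spib+Villin-cre, and 1 of untreated Spib_KO mice, genotype Spibfl/flVillin-cre. Both genotypes carry Villin-cre, which drives recombination throughout the intestinal epithelium, so the deletion is not limited to tuft cells. The age, the number of mice pooled and the deleted part of Spib are not stated in the sources used. With 1 library a group there is no replicate check and no test between genotypes, and every value below describes these 2 libraries.

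The libraries held 17925448 (WT) and 17228684 (Spib_KO) reads in genes. Spib, the deleted ETS-family transcription factor gene, went from 6266 reads to 48, and the sort genes Siglecf and Epcam had log2 ratios of 0.14 and -0.06. All 16 tuft cell markers were measured and 0 were called, with summed levels of 21310 and 20457 CPM (reads scaled to a common library size). Several markers of other cells were called lower in Spib_KO, beside 2.18% lower and 2.33% higher of all measured genes. They were 6 of 7 measured Paneth cell markers, 3 of 8 goblet cell markers and 5 of 8 measured enteroendocrine markers, where 1 was higher. So were 4 of 4 measured T cell and intraepithelial lymphocyte markers. The summed level of all 9 markers of that list was 54.5 and 5.77 CPM. Of 14 measured enterocyte markers 0 were called and 11 had log2 ratios below 0. Their summed levels were 18512 and 19841 CPM, and Fabp1, the most abundant, had more reads in Spib_KO (125395 and 182096). The filter on low values bears on these counts. The 4 T cell markers, the 5 lower enteroendocrine markers and 1 of the 6 Paneth cell markers passed it through WT alone, so they had to be lower, and 38.6% of all genes that passed through WT alone were called. The other 5 Paneth cell markers and the 3 goblet cell markers passed in both libraries. In a bulk sample, fewer cells of a type and less RNA per cell cannot be told apart.

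In regulated secretion, a vesicle is carried to its target membrane under the control of Rab GTPases such as Rab3 and Rab27, held by scaffolds such as the liprins and Rim proteins, and made ready by Unc13 and syntaxin-binding proteins. Fusion is driven by SNARE proteins, in which a Vamp on the vesicle zips together with a syntaxin and a Snap protein on the target membrane, and synaptotagmins couple the step to calcium. Tuft cells release acetylcholine, lipid mediators and cytokines, and electron microscopy has long described vesicles in their apical cytoplasm. Ferlins are large proteins with several C2 domains that bind calcium and lipids, and are known from muscle membrane repair and from exocytosis at the inner hair cell synapse.

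Vamp8 and Stxbp2, the genes with the highest TPM (reads scaled for gene length and library size) in this set, had log2 ratios of 0.10 and 0.08 between the libraries, while Ppfia2 and Myof, at 15 and 23 reads in WT, had 490 and 532 in Spib_KO. Measured genes are those with at least 5 CPM and at least 30 reads in 1 library or both. A measured gene was called when the bound nearest 0 of the 95% counting interval of its log2 ratio (Spib_KO over WT) was at least 1 from 0, a 2-fold difference. Of the 73 genes, 40 were measured. Of these, 3 were called higher (Ppfia2, Myof and Syt1), where 2.33% of all 10707 measured genes were higher, and 0 were called lower, where 2.18% of all genes were lower. The median log2 ratio of the measured genes was 0.09, beside 0.01 over all genes, with quartiles of -0.08 and 0.62 beside -0.26 and 0.28. All 3 called genes, with Rab3b and Sytl1, passed the filter in Spib_KO alone, so they had to be higher there. Of all 427 genes that passed in Spib_KO alone, 34.0% were called. Vamp1 passed in WT alone. Among the 34 genes that passed in both libraries 0 were called, beside 1.96% of all genes that did so, and the highest log2 ratio was 1.17.

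**Figure D1:**
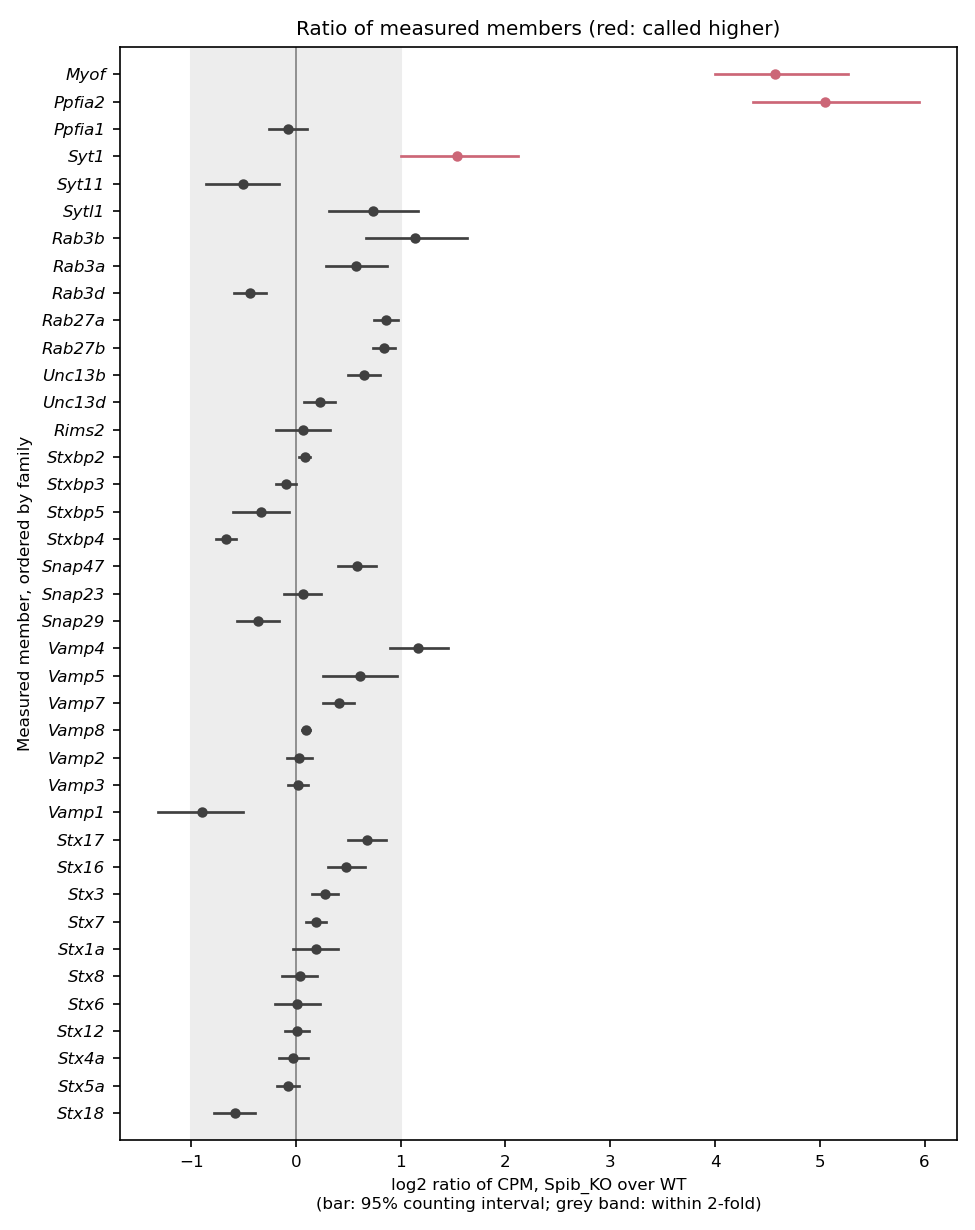
The log2 ratio of CPM, Spib_KO over WT, of 39 measured genes on the x axis, with its 95% counting interval, ordered by family on the y axis. Myof and Ppfia2 (log2 ratios 4.57 and 5.05) lie far to the right of the grey band that marks a difference of less than 2-fold, the interval of Syt1 starts at the edge of the band, and most SNARE genes lie within the band.

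Ppfia2 encodes liprin-alpha-2, a scaffold protein known from the presynaptic active zone, where it binds Rim and the receptor phosphatase LAR. It lies on chromosome 10 from 106469500 to 106933468 (GRCm38.p6). The WT library held 15 reads of it, or 0.83 CPM (95% exact Poisson interval 0.47 to 1.37), and the Spib_KO library 490, or 28.6 CPM (26.1 to 31.2). The Spib_KO value lay far above the counting error of the WT value, a rise of 33.2-fold and a log2 ratio of 5.05 (4.36 to 5.95). On the length-scaled TPM scale it went from 0.18 to 5.99, from the 20.1st to the 52.3rd percentile of all genes in the table. Its close relative Ppfia1, the broadly expressed liprin-alpha, had 523 and 473 reads, at a log2 ratio of -0.08 (-0.26 to 0.11). Ppfia1 made up 85.8% of the summed liprin-alpha TPM in WT and 51.9% in Spib_KO, where Ppfia2 had come close to its level (7.42 TPM for Ppfia1 and 5.99 TPM for Ppfia2). Ppfia3 and Ppfia4, known mainly from brain, were below the filter with 39 and 41 reads and with 12 and 2 reads.

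Myof encodes myoferlin, a ferlin of myoblasts and endothelial cells that takes part in membrane repair and receptor recycling. It lies on chromosome 19 from 37899036 to 38043577. The WT library held 23 reads of it, or 1.28 CPM (0.81 to 1.92), and the Spib_KO library 532, or 31.0 CPM (28.4 to 33.8). It rose 23.8-fold, at a log2 ratio of 4.57 (4.0 to 5.27), and its TPM went from 0.24 to 5.76. No other ferlin was measured. Fer1l6 had 11 WT reads and 34 Spib_KO reads, at a log2 ratio of 1.65 (0.68 to 2.83), and Fer1l4 had 0 and 13 reads, with the interval bound nearest 0 at a log2 ratio of 1.68. Dysf, the gene of the muscle repair protein dysferlin, had 2 and 0 reads, and Fer1l5 had 0 and 1. Since Myof passed the filter in Spib_KO alone and the other ferlins were below it, these values give no direction for the family.

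The sequences before the annotated starts of these genes are shown because Spib encodes an ETS factor, a family that binds DNA around a GGAA core. RefSeq windows of build GRCm38.p6 were used, and the 250 bases before the start are given 5′ to 3′ on the strand of the gene, with each GGAA, or TTCC on the other strand, in capitals. The genes are the 3 that were called, and Vamp8 as the most abundant gene, which was not called. The windows are chr10:106470060-106470309 (+) for Ppfia2, chr19:38043578-38043827 (-) for Myof, chr10:109010976-109011225 (-) for the first of 2 windows of Syt1 and chr6:72390668-72390917 (-) for Vamp8. The start used for Ppfia2 in the promoter table lies inside the gene span given above, so its window lies within that span, near the end where transcription starts.
Ppfia2: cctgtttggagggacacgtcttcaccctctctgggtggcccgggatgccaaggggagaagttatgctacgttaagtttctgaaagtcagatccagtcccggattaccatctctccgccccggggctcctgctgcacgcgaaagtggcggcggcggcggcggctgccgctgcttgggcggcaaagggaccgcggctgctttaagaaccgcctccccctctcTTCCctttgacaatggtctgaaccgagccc
Myof: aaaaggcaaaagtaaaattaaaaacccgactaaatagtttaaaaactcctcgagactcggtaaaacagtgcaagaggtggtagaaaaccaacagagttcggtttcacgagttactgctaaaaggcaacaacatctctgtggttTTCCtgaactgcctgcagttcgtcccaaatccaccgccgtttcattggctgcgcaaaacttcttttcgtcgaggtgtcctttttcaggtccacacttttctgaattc
Syt1: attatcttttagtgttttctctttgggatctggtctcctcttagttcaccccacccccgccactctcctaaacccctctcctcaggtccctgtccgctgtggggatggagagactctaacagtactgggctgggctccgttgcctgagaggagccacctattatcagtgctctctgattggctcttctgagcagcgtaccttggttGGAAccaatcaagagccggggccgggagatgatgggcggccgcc
Vamp8: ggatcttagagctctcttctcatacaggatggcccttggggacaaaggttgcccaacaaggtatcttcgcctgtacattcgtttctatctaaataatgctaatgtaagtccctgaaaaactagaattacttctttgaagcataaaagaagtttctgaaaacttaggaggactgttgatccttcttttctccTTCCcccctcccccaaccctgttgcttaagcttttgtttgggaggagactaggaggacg
Each of these 4 stretches held the core 1 time. The core is too short to set a promoter apart: it was in 98.6% of 71 windows of 56 matched genes and in 96.0% of all 32851 windows of the same 300 bases (250 before the start and 50 after it), counting both strands. The longer ETS-type sequence GAGGAAGT was in 0 of the 71 windows and in 3.20% of all windows. AGGAAGT, which lies within it, was in 4 of the 71 (5.63%), those of Stx5a, Stx8, Stx19 and Rims3, beside 9.35% of all, and CGGAAGT was in 2 (2.82%), those of Snap29 and Stx6, beside 6.42% of all. None of the 3 longer sequences was in a window of a called gene. A match or its absence in these windows is a description of letters only.

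Syt1 encodes synaptotagmin-1, the main calcium sensor for fast release at synapses. It had 38 reads in WT, or 2.11 CPM (1.49 to 2.90), and 106 in Spib_KO, or 6.18 CPM (5.06 to 7.47). It rose 2.90-fold, at a log2 ratio of 1.54 (1.0 to 2.12), and its interval only just reached the threshold. With DESeq2 size factors or total counts in place of the main scaling it was not called, at log2 ratios of 1.52 and 1.52. At a minimum of 20 CPM, or of 5 on deposited TPM or FPKM, it was not measured. The other measured synaptotagmin, Syt11, which lacks calcium binding and is known from vesicle recycling, had 170 and 114 reads, at a log2 ratio of -0.51 (-0.86 to -0.16). Syt11 had the higher TPM in both libraries, 2.78 and 1.97, beside 0.61 and 1.78 for Syt1, and the summed TPM of all 13 synaptotagmins was 5.58 in WT and 5.43 in Spib_KO. As a family they were thus far less abundant per length than the SNAREs, and 11 of the 13 were below the filter.

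Markers of nerve cells, in which Syt1 and its SNARE partner Snap25 are best known, did not move together. Of 10 such markers present, 2 were measured, Syt1 itself and Nefl, a neurofilament gene that rose from 85 to 391 reads, at a log2 ratio of 2.26 (1.93 to 2.63). Summed over the 10 they reached 13.1 CPM in WT and 30.3 CPM in Spib_KO. The neuronal tubulin gene Tubb3 had 4 and 0 reads, Uchl1 2 and 0, and Snap25 13 and 3, and Prph, a peripheral nerve filament gene, had 72 and 12. Ret had 11 and 1 reads, Nos1 4 and 2, and Elavl3, a neuronal RNA-binding protein gene, 2 and 5. Both measured genes passed the filter in Spib_KO alone. The part of nerve-cell RNA in the value of Syt1 was not tested.

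Rab27a and Rab27b, paralogous GTPases that dock secretory granules and lysosome-related organelles, had similar ratios to each other. Rab27a had 939 reads against 1623 (WT first, as in all pairs of values), or 52.2 and 94.6 CPM, at a log2 ratio of 0.86 (0.74 to 0.98). Rab27b had 1216 and 2077 reads, or 67.6 and 121 CPM, at a log2 ratio of 0.84 (0.74 to 0.94). Neither was called, since both intervals ended below 2-fold, and both were clear of 0. The summed Rab27 TPM was 33.5 in WT and 60.0 in Spib_KO, and Rab27a took nearly the same share of it in each, 63.5% and 63.7%.

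The Rab3 genes, GTPases of synaptic and exocrine vesicles, did not share a direction. Rab3d, the Rab3 of exocrine and other granule-bearing cells, had 876 and 616 reads, at a log2 ratio of -0.44 (-0.59 to -0.29). Rab3a, the main Rab of synaptic vesicles, had 168 and 239 reads, a ratio of 0.58 (0.29 to 0.87), and Rab3b had 55 and 116, a ratio of 1.14 (0.67 to 1.64). The order by TPM changed with these values: Rab3d had 17.1 and Rab3a 9.52 in WT, while Rab3a had 14.0 and Rab3d 12.4 in Spib_KO. Rab3c, the remaining member, was below the filter with 14 and 20 reads.

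Synaptotagmin-like proteins link Rab27 to the plasma membrane, and they diverged. Sytl1 had 78 against 124 reads, at a log2 ratio of 0.73 (0.32 to 1.17), and it alone was measured. Sytl3 had 68 and 64 reads and Sytl4, known from insulin granules, 39 and 56, with intervals that held 0. Sytl2, which is known from melanosomes, epithelia and cytotoxic lymphocytes, had 83 and 17 reads, at a log2 ratio of -2.19 (-3.07 to -1.45), and Sytl5 had 38 and 1, a ratio of -4.63 (-10.5 to -2.61). The Spib_KO counts of both lay below the counting intervals of the WT counts, but both genes were under 5 CPM. The lymphocyte markers that were lower in Spib_KO, among them Gzma (317 and 22 reads) and Ccl5 (219 and 13 reads), moved the same way, and their part in the values of Sytl2 and Sytl5 was not tested.

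The priming factors were led by Unc13d and Unc13b. Unc13d, or Munc13-4, which binds Rab27 and primes granules of blood cells, had 731 and 815 reads, at a log2 ratio of 0.23 (0.08 to 0.37). Unc13b, or Munc13-2, had 569 and 852 reads, a ratio of 0.65 (0.50 to 0.81). It overlaps the edge of Fam214b, whose own ratio was -0.74, and strand is not kept. Unc13d was the more abundant per length in both libraries, with 13.1 and 15.1 TPM beside 5.98 and 9.65 TPM for Unc13b. Unc13a and Unc13c, the neuronal forms, had 66 and 42 and 8 and 2 reads. Of the Rims genes, which build the active zone, Rims2 had 254 reads in each library, at a log2 ratio of 0.07 (-0.19 to 0.33), and Rims3 and Rims4 had 4 and 4 and 9 and 6 reads.

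Among vesicle SNAREs, Vamp8 stood above all other genes described here. Vamp8, the SNARE of regulated secretion in exocrine, mast and other non-neuronal cells, had 9867 and 10049 reads, or 548 and 586 CPM, at a log2 ratio of 0.10 (0.05 to 0.14). Its TPM of 1223 and 1258 put it at the 99.2nd and 99.3rd percentile of all genes, and it took 90.0% and 89.6% of the summed Vamp TPM. It was thus in the top percent of the transcriptome in both genotypes. Vamp3 (1674 and 1619 reads) and Vamp2 (1181 and 1152 reads), SNAREs of recycling and regulated vesicles, had ratios of 0.02 and 0.03, and Vamp7, of lysosomal and apical traffic, had 0.41. Vamp4, a SNARE of the trans-Golgi network and endosomes, had 164 and 352 reads, or 9.11 and 20.5 CPM, at a log2 ratio of 1.17 (0.90 to 1.45). Its point value was past 2-fold and its interval was not. Vamp5 had 114 and 166 reads, a ratio of 0.61 (0.26 to 0.97), and Vamp1, a neuronal Vamp, 153 and 78 reads, a ratio of -0.90 (-1.32 to -0.50).

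The measured syntaxins, target-membrane SNAREs, all lay within 2-fold. Of 15 present, 11 were measured, 0 were called, and the ratios ran from -0.59 to 0.68 with a median of 0.03. Stx5a, of traffic between the endoplasmic reticulum and Golgi, had the highest TPM in WT, 68.8 beside 63.4 in Spib_KO, and a log2 ratio of -0.08 (-0.18 to 0.03). Stx7, of late endosomes, had 61.2 and 69.0 TPM and a ratio of 0.19 (0.10 to 0.29). Stx3 and Stx4a, the apical and basolateral plasma-membrane syntaxins of epithelia, had 1011 and 1169 reads and 867 and 813 reads, with ratios of 0.28 and -0.02. Their counting intervals, 0.16 to 0.40 and -0.16 to 0.12, lay wholly within 1.5-fold of equal levels. They hold no variation between animals or libraries. The furthest on either side were Stx17, of autophagosomes, with 417 and 637 reads and a ratio of 0.68 (0.50 to 0.86), and Stx18, of the endoplasmic reticulum, with 556 and 353 reads and a ratio of -0.59 (-0.78 to -0.39). Stx1a, the syntaxin of neurons and endocrine cells, had 349 and 379 reads, while Stx11, of cytotoxic lymphocytes, had 0 in both, which allows up to 0.17 CPM in each library.

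Of the Snap genes, whose products supply the other target-membrane strands of the SNARE bundle, Snap23 and Snap47 led. Snap23, the broadly expressed relative of Snap25, had 523 and 522 reads, at a log2 ratio of 0.07 (-0.11 to 0.24). Snap47 had 424 and 605 reads, a ratio of 0.58 (0.40 to 0.76). It overlaps the edge of Jmjd4, whose ratio was -0.51. Snap29, of autophagosomes and endosomes, had 479 and 356 reads, a ratio of -0.36 (-0.56 to -0.16), and overlaps the edge of Pi4ka (ratio -0.06). By TPM, Snap23 and Snap47 were level in WT at 17.5 and 17.4, and in Spib_KO they had 18.1 and 25.8.

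Syntaxin-binding proteins of the Munc18 type chaperone syntaxins, and Stxbp2, the epithelial and blood-cell form that acts with Stx3 and with Stx11, was by far the most abundant. It had 5780 and 5834 reads, or 321 and 340 CPM, at a log2 ratio of 0.08 (0.03 to 0.13), and held 70.3% and 74.8% of the summed Stxbp TPM. Stxbp3, the ubiquitous form, had 1885 and 1681 reads, a ratio of -0.10. Stxbp4 had 2422 and 1454 reads, a ratio of -0.67 (-0.76 to -0.57). None of the 5 measured genes of this family was called. The tomosyn gene Stxbp5, an inhibitor of SNARE assembly, had 274 and 207 reads, and Stxbp6 had 70 in each library.

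**Figure D2:**
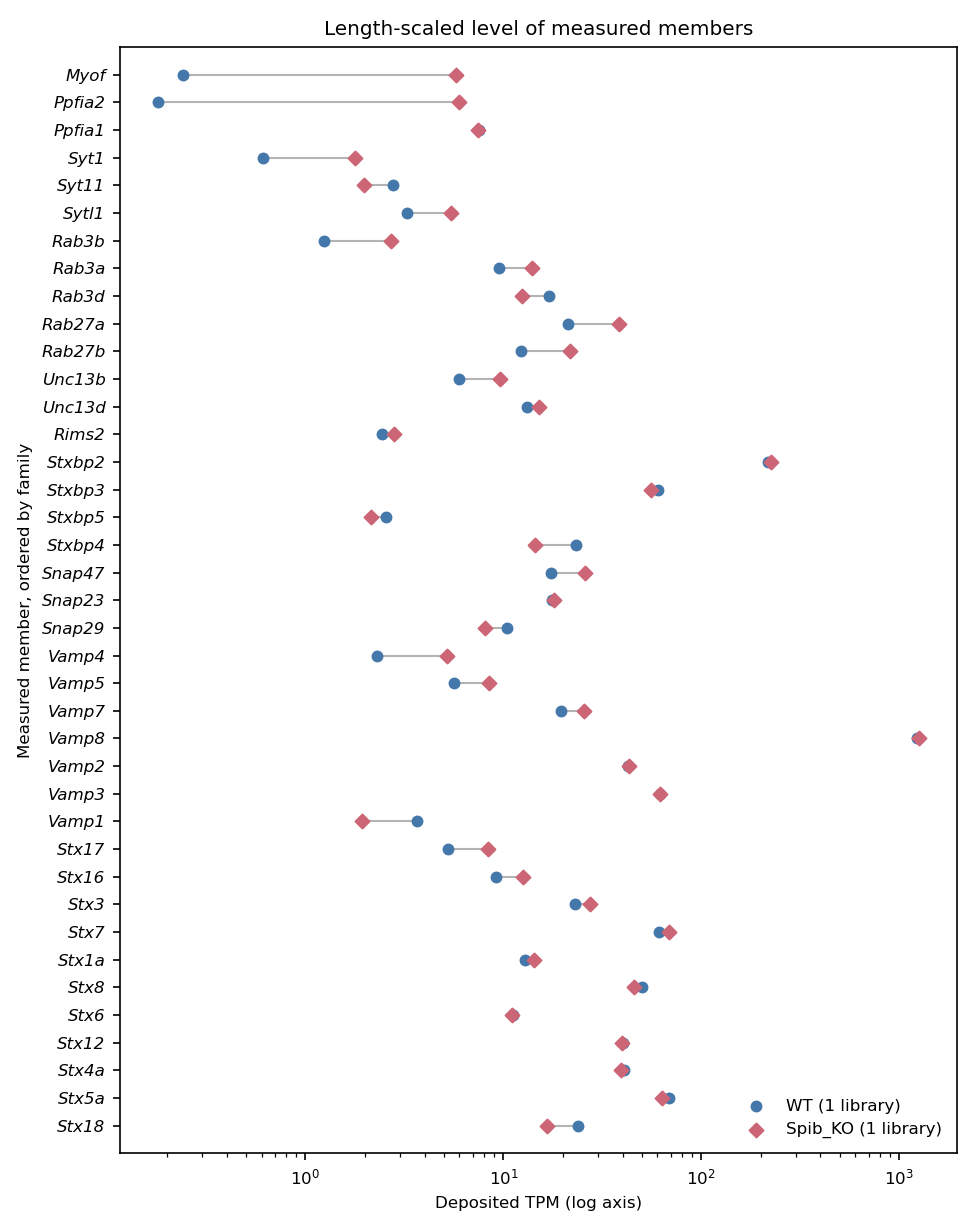
Deposited TPM (log axis) of 39 measured genes in the WT library (circles) and the Spib_KO library (diamonds), ordered by family on the y axis. Vamp8 at 1223 and 1258 TPM and Stxbp2 at 217 and 225 TPM lie far to the right with overlapping symbols, while Myof and Ppfia2 move from under 1 TPM in WT to 5.76 and 5.99 TPM in Spib_KO.

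By size alone, 11 of the 40 measured genes were more than 1.5-fold higher and 4 more than 1.5-fold lower as point values, where 10.7% and 9.8% of all measured genes were. Among genes that passed the filter in both libraries, those more than 1.5-fold apart were 6 of 34 higher and 3 of 34 lower, or 17.6% and 8.82%, beside 8.05% and 7.42% of all genes. The 6 were Rab27a, Rab27b, Unc13b, Vamp4, Vamp5 and Stx17, and the 3 included Stx18 and Stxbp4. By a point value past 2-fold, 5 of the 40 were higher (the called genes with Rab3b and Vamp4), beside 3.97% of all genes. Of these only Vamp4 passed the filter in both libraries. The called genes and Rab3b passed in Spib_KO alone and had to be higher, so the 5 are no measure of a shift. At the other end, 19 genes had a counting interval wholly within 1.5-fold of equal levels.

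The 33 genes below the filter included several that were nearly lost from the Spib_KO library, some of them known from neurons and endocrine cells. None of the 33 reached more than 4.61 CPM. Read without the filter, 6 of them had intervals wholly past 2-fold on the lower side (Sytl2, Sytl5, Stxbp5l, Syt3, Syt7 and Stx19) and 1 on the higher side (Fer1l4). With the called genes, that is 4 higher and 6 lower of 72 genes with a read, or 5.56% and 8.33%, beside 3.48% and 4.18% of all genes with a read. Stxbp5l, another tomosyn, had 34 reads against 1, at a log2 ratio of -4.47 (-10.4 to -2.44). Syt7, a slow calcium sensor of endocrine granules and lysosomes, had 21 and 1, a ratio of -3.78 (-9.69 to -1.69), and Syt3 had 18 and 0, with the interval bound nearest 0 at -2.07. Stx19, an epithelial syntaxin that lies within Arl13b, had 10 and 0, with that bound at -1.10. Another 6 had intervals clear of 0 but not past 2-fold (Ppfia4, Snap25, Syt2, Syt4, Unc13a and Fer1l6). The remaining 20 could not be told from equal levels at this depth, among them Stx2 (51 and 41 reads) and Stxbp6.

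Enteroendocrine markers moved beside these low-count genes. Of 20 present, 8 were measured, 5 were lower and 1 higher (Gip), each passing the filter only in the library where it was higher. Cck had 379 and 1 reads, Chga, a granule protein gene, 232 and 43, and Sst 272 and 24, while Gcg (316 reads in WT) and Tph1 (123) were at 0 in Spib_KO. The summed level of the list was 555 and 581 CPM because Sct, which is also abundant in these libraries (404 and 533 CPM), made up most of it. The part of enteroendocrine RNA in the values of Syt3, Syt7 and Stxbp5l was not tested.

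**Figure D3:**
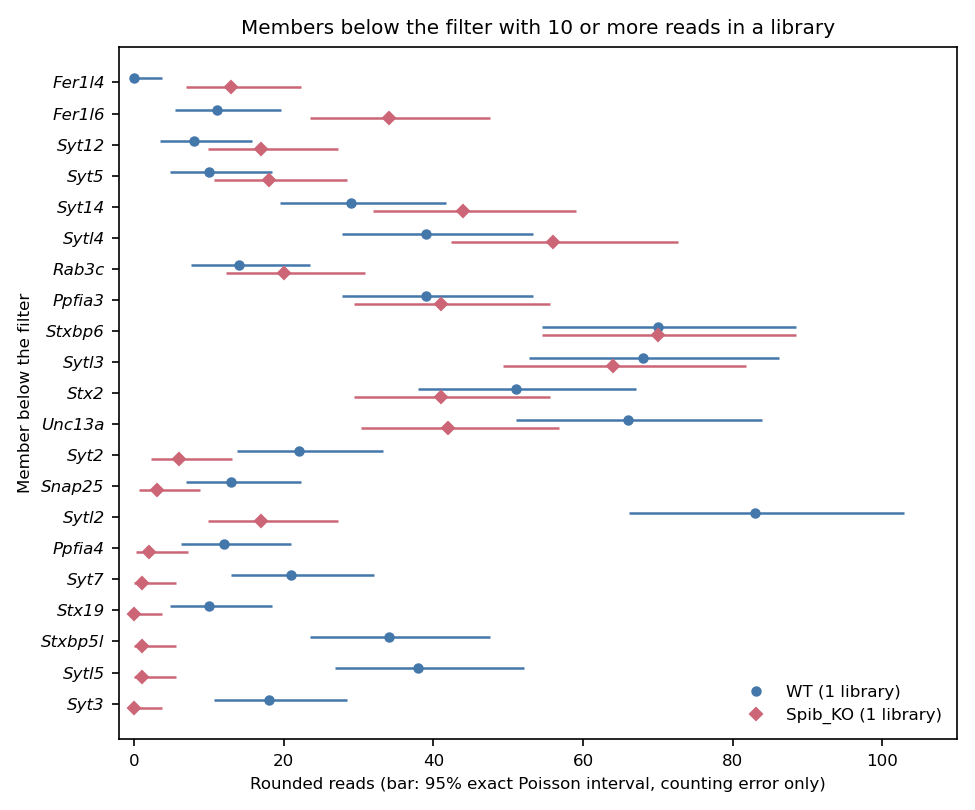
Rounded reads in the WT library (circles) and the Spib_KO library (diamonds), with 95% exact Poisson intervals, for the 21 genes below the filter that had 10 or more reads in a library, ordered by log2 ratio on the y axis. Sytl2 goes from 83 to 17 reads and Sytl5 from 38 to 1, while Stxbp6 has 70 in both.

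The other genes of the pathway had few calls. SNARE cofactors, which include the disassembly factor Nsf and the granule-priming Cadps genes, had 0 called of 27 measured, and the median log2 ratio was -0.22. The most abundant, the cargo receptor gene Tmed2, had 7226 and 7053 reads. The exocyst, which tethers vesicles to the plasma membrane, had 0 called of 9 and a median of -0.06, with 1529 and 1395 reads for Exoc7. In the active zone and scaffold list 0 of 18 were called, with a median of -0.08, and the adaptor gene Apba3 had 2182 and 2174 reads. Among Rab effectors and regulators 0 of 25 were called, with a median of -0.03, and Rab25, an epithelial recycling Rab, had 5412 and 4344 reads. These 4 lists thus had 0 calls among 79 measured genes, while 4.51% of all measured genes were called in either direction. In list order, 26, 9, 17 and 24 of their genes passed the filter in both libraries. Of all genes that did so only 1.96% were called, and 0 calls lie near that share.

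Among synaptic vesicle proteins 1 of 11 measured genes was higher and 0 lower, beside 2.33% and 2.18% of all genes, with a median of 0.06. It was Slc18a3, the vesicular acetylcholine transporter, with 72 and 185 reads and a log2 ratio of 1.42 (1.03 to 1.84). It passed the filter in Spib_KO alone, so it had to be higher. Its gene sits inside Chat (ratio 0.01), and how the counting assigned reads of the shared stretch is not given in the sources used here. Among annexins and other genes of membrane repair, the process for which ferlins are known, 1 of 18 was higher and 2 were lower, beside the same shares of all genes, with a median of -0.04. Anxa1, a calcium-dependent membrane-binding protein gene, rose from 23 to 116 reads, with a log2 ratio of 2.38 (1.75 to 3.12). Anxa10 fell from 232 to 62 reads, a ratio of -1.83 (-2.26 to -1.43), and S100a11, which encodes an annexin partner, fell from 6386 to 2008 reads, a ratio of -1.60 (-1.67 to -1.53). Both annexins passed the filter only in the library where they were higher, and S100a11 passed it in both. By TPM, Anxa1 had 1.37 and 7.11 and Anxa10 10.04 and 2.77, whereas S100a11 had 1533 and 474.

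**Figure D4:**
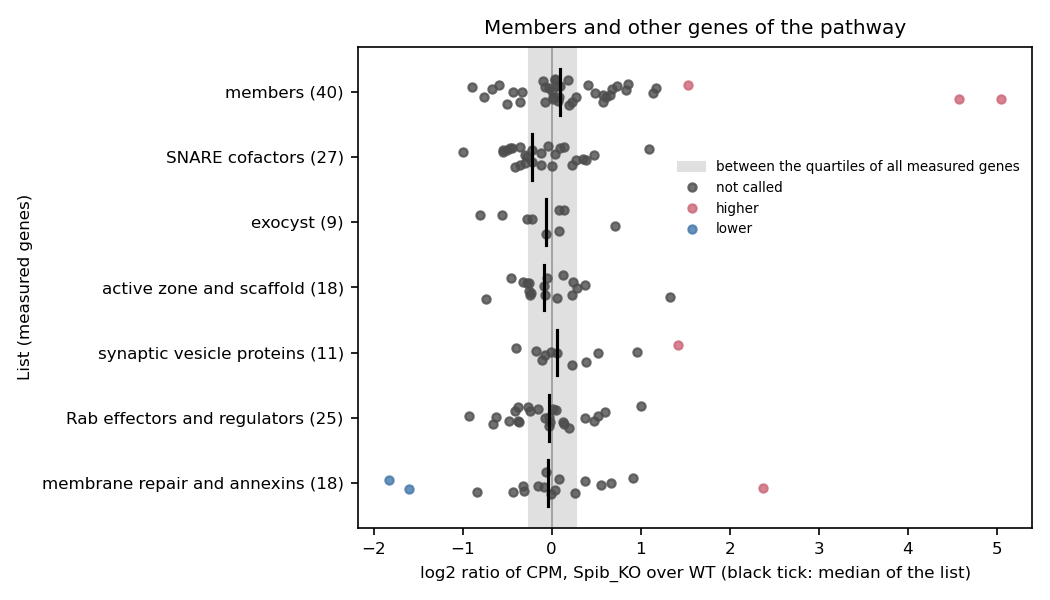
The log2 ratio of CPM, Spib_KO over WT, of each measured gene (points, spread vertically for legibility) in the genes described here and in 6 other lists on the y axis, with the median of each list as a black tick and the range between the quartiles of all measured genes as a grey band. The medians lie between -0.22 and 0.09, and Ppfia2 and Myof lie furthest from 0.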

How the data were processed

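RNA of sorted tuft cells was extracted with TRIzol, and libraries were made with a transposase from cDNA amplified the Smart-seq2 way, per the labels' protocols. No molecular identifiers or strand are kept, so intervals cover counting error only. HISAT, Bowtie2 2.2.3 and build mm10 are named in the submitters' processing notes. The counting program is not given in the sources used here. The authors deposited an expected count, a TPM value and an FPKM value for each gene and library, per the file headers. Counts, of which 19.0% (WT) and 18.6% (Spib_KO) were not whole, were rounded.

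Scaling used TMM factors of edgeR 4.0.16 in R 4.3.3, and log2 ratios a prior count of 0.5. Their 95% intervals are exact conditional binomial (Clopper-Pearson) intervals. The procedure was run on simulated counts that held counting error only. Differences were planted only in genes with more reads, averaged over the libraries, than the called genes here. That run therefore does not check variation between animals or libraries, or calls at low counts. With 1 library per group no test was run. Levels of different genes were compared only by deposited TPM. Positions are from RefSeq GRCm38.p6, a patch release of GRCm38 (mm10), and all 73 genes had one. Alternatives were DESeq2 1.42.0, total-count and upper-quartile scaling, other filters, bounds and prior counts, and deposited TPM and FPKM as log2(value + 1).

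The genes and lists were chosen with earlier results of these data known. Genes were named if called, among the 2 highest in TPM or the furthest from 0 in their family, and, in the other lists, the first 3 called or else the most abundant. Further genes, in report and closing section, were named after their values were seen. Some genes of these families and lists are counted but not reported here.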

Additional observations from a re-analysis of the deposited data

How the results depend on the processing

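Of 168 log2 ratios of 28 named genes under the alternatives, 156 stayed within the counting interval of the main value, 12 moved beyond it and 0 called values changed sign. All 12 came from deposited TPM or FPKM, where the added 1 pulls low values together. Ppfia2 had 2.57 with TPM and 2.33 with FPKM, and Myof 2.45 and 2.23. Vamp8, at TPM far above 1, had 0.04 with each, just under its main interval of 0.05 to 0.14, and the cause was not tested. The count of higher genes was 3 in the main analysis. It was 2 with DESeq2 size factors or total counts, where Syt1 was not called. It was also 2 at a minimum of 20 CPM, with a 4-fold bound and with TPM, where Syt1 dropped out each time. The point estimate of a 2-fold difference gave 5 (Rab3b and Vamp4 were added), and leaving out the filter gave 4 (Fer1l4 was added). With FPKM the count was 0, since Ppfia2, Myof and Syt1 all lay under the minimum of 5. The count of lower genes was 0, and 6 without the filter, which admits genes of few reads. Ppfia2 and Myof were called under each alternative on counts, including a 4-fold bound, and with TPM. The median log2 ratio was 0.04 to 0.14. Leaving out the 3 measured genes that overlap another gene left 3 higher and 0 lower. No paired analysis was possible because each genotype has 1 library. Genes under 5 CPM rest on at most 83 reads a library.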

Other observations

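The called genes were followed along their chromosomes, a choice made after their values were seen. Ppfia2 and Syt1 lie 1564 kb apart on chromosome 10. Of the 9 genes of the table between them, 1 was measured, Ppp1r12a, a myosin phosphatase subunit gene, with 1363 and 1684 reads and a log2 ratio of 0.37 (0.27 to 0.48). The nearest 2 to Ppfia2, Acss3 and Lin7a, had 3 and 0 reads and 9 and 6 reads. Of 12 other genes of the table within 500 kb of Myof, 6 were measured and 0 were called, among them Cep55 (234 and 204 reads) on one side and the exocyst gene Exoc6 (551 and 357 reads) on the other. Cyp26a1, the retinoic acid hydroxylase gene next to Myof, had 0 and 11 reads.

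In other lists, 5 genes are given here that were not called. Cadps2, which primes dense-core granules, had 237 and 484 reads (WT, then Spib_KO), a log2 ratio of 1.10 (0.87 to 1.33), while its paralogue Cadps was below the filter with 63 and 25, a ratio of -1.25 (-2.0 to -0.58). Napb, the neuronal form of the SNARE disassembly adaptor, had 5 and 40 reads, a ratio of 2.95 (1.73 to 4.77), also below the filter. Slc18a2, the vesicular monoamine transporter, had 81 and 151 reads, a ratio of 0.96 (0.57 to 1.38). Dlg3, a synaptic scaffold gene, had 55 and 133 reads, a ratio of 1.33 (0.88 to 1.82). At 4.50 and 3.06 CPM in WT, Slc18a2 and Dlg3 passed the filter in Spib_KO alone, so they had to be higher.

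The deposited reads per TPM, which reflect the gene length used, differed between the libraries for a few genes. Relative to the median of 8209 genes with a TPM of 5 or more in both libraries, the Spib_KO over WT quotient was 1.11 for Stx8 and 0.94 for Stx18, outside the central range of 0.96 to 1.07 that holds all but the outer 5% on each side. Ppfia1 (0.95) was also outside it and Unc13b (0.96) was at its lower edge.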
